A study of Rattus norvegicus with 180 samples.

Results

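miR-216a, miR-216b and miR-217 are microRNAs (miRNAs) of acinar cells, the enzyme-secreting cells of the exocrine pancreas. They were followed over an atlas of 55 organs of male rats measured on 1-color miRNA arrays. The 3 names rno-miR-216a, rno-miR-216b and rno-miR-217 were chosen by name, and 2 of them were found under exactly these names among the 717 miRNAs of the array. miR-216b was present as its arms rno-miR-216b-5p and rno-miR-216b-3p. With the opposite arms rno-miR-216a* and rno-miR-217* and an earlier miRBase 15.0 entry of miR-217 (rno-miR-217_v15.0), the 3 hairpins had 7 IDs on the array, of which 4 were detected on at least 1 of 180 arrays.

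A miRNA is cut as a short duplex from a hairpin precursor, and usually 1 arm is loaded into an Argonaute protein and directs repression of transcripts that pair with its seed, the bases near its 5′ end. In rodents and humans miR-216a, miR-216b and miR-217 lie close together in the genome and are known for their abundance in pancreatic acinar tissue, which is why they have been studied as circulating markers of pancreatic injury. Salivary glands are the nearest anatomical counterpart, because their acinar cells also make and secrete large amounts of digestive enzymes or mucus.

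The mature arms are shown because the array reads each arm by complementary probes, so closely related arms can share signal. The sequences are those of RefSeq (build GRCr8), written 5′ to 3′ with the seed, bases 2 to 8, in capitals.
miR-216a-5p: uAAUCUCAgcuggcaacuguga
miR-216b-5p: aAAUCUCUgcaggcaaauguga
miR-217-5p: uACUGCAUcaggaacugacugg
miR-216a-3p: cACAGUGGucucugggauuaug
miR-216b-3p: cACACUUAcuuguagagauu
miR-217-3p: aUCAGUUCcuaaugcauugccu

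miR-216a-5p and miR-216b-5p were identical at 18 of 22 positions and differed by U1A, A8U, U11A and C17A, where the miR-216a base comes first and positions are counted from the 5′ end. The 1 difference inside the seed, A8U, sits at its last base, so the seeds AAUCUCA and AAUCUCU share bases 2 to 7. Position by position, miR-217-5p matched each of them at 6 of 22 bases. None of the other mature arms in the RefSeq table, which holds 724 mature entries, had any of these 3 seeds, although rno-miR-6321 shares bases 2 to 7 with miR-217-5p. The hairpins lie on the plus strand of rat chromosome 14 (GRCr8) in the order Mir216b (chr14:106714026-106714127), Mir216a (chr14:106725077-106725182) and Mir217 (chr14:106732485-106732589), with gaps of 10949 and 7302 bases. The annotated lncRNA LOC102550402 overlaps all 3 hairpins and LOC102550342 overlaps Mir216a and Mir217, with strand not compared. The nearest protein-coding genes on either side are Ccdc85a and Efemp1.

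The animals were male Sprague-Dawley rats aged 10 weeks. Rats 4, 5 and 6 were perfused with saline before all 55 organs were taken, which gave 165 arrays with 3 rats per organ. Rats 1 to 3 were not perfused and gave lung, liver, kidney and 2 heart regions (the atrium, the interventricular septum), 15 arrays in all. Each array received label made from 0.1 µg of total RNA of a bulk tissue sample, so fewer cells of a type and less RNA per cell cannot be told apart. By the methods, the duodenum and the other intestinal samples were scraped mucosa, the liver samples came from 1 lobe and the thalamus was cut from the cerebrum. The labels give 2 different rat numbers for 8 arrays, among them the pituitary gland of rat 5. The number in the sample title was used for them, and the other label gives rat 6.

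The pancreas arrays stood apart before any scaling. Taken over the 37 miRNAs that every array detected, their 75th percentile was 121, 90.5 and 68.0 fluorescence units in rats 4, 5 and 6, against 336 to 6121 in the 9 arrays of the parotid, mandibular and sublingual glands and 336 to 6343 over all other organs. Scaling to this percentile therefore multiplied pancreas signals by 17.5 to 31.1 and salivary signals by 0.346 to 6.30. The added control RNAs did not follow this gap. The hybridization controls read 9609 to 12270 units in pancreas and 8463 to 12932 in the glands, and the labelling controls 1222 to 2045 and 1442 to 1810. The summed signal over all miRNAs was 71870 to 90051 in pancreas, inside the range of 24633 to 282412 in the glands. The 4 brightest IDs of the pancreas arrays, rno-miR-1224, rno-miR-494_v15.0, rno-miR-3584-5p and rno-miR-494, picked after their values were seen, held 86.4% to 91.9% of that sum in pancreas, against a median of 0.611% in the glands, where 2 arrays stood apart at 40.2% (the parotid gland of rat 6) and 35.8%. Their part in the results below was not tested, and the levels of the members in pancreas and pituitary gland and all their differences are given both scaled and unscaled.

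**Figure D1:**
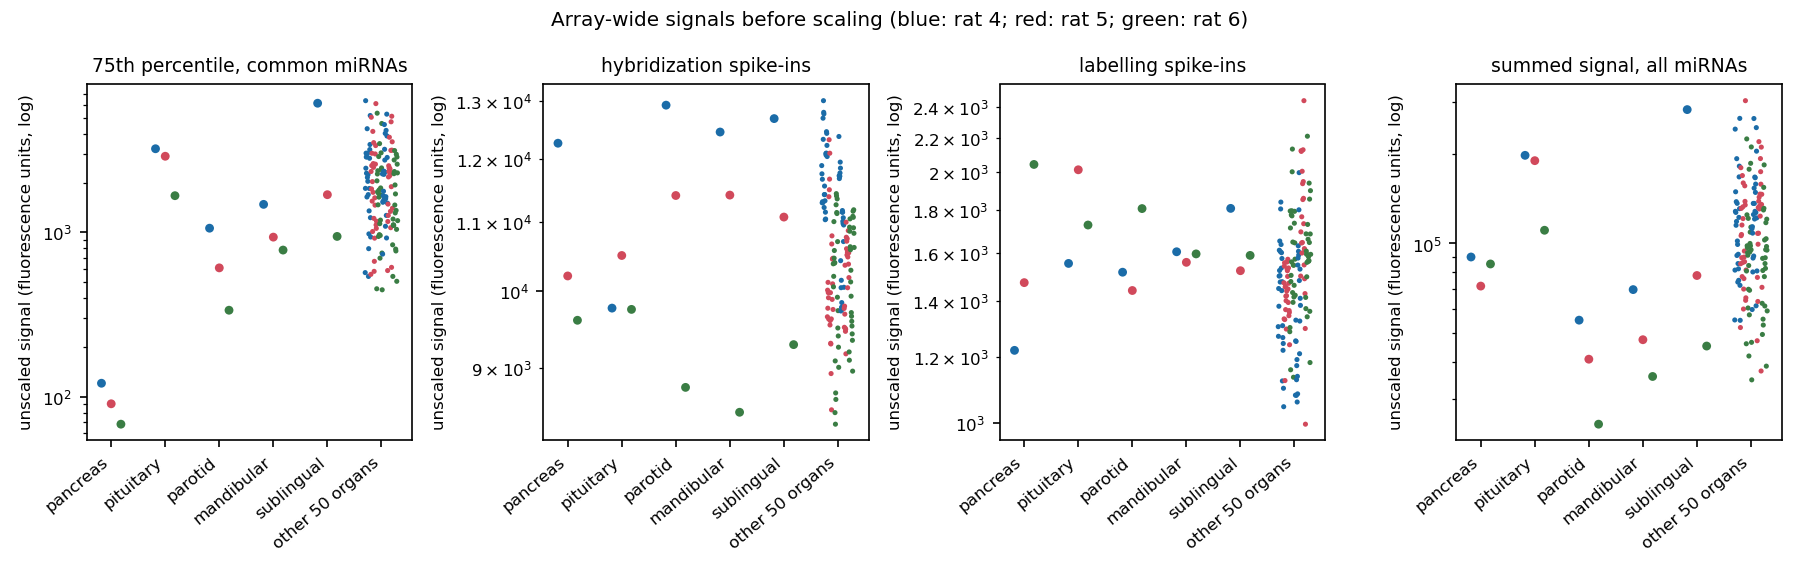
Array-wide signals before scaling on logarithmic axes, 1 point per array of the perfused rats. The 75th percentile of the common miRNAs was lower on the 3 pancreas arrays (68.0 to 121 units) than on every other array, while hybridization controls, labelling controls and summed signal lay inside the range of the other organs.

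miR-216a was brightest in pancreas. Its unscaled signal there was 311, 252 and 192 fluorescence units in rats 4, 5 and 6 (mean 252 ± 59.9, SD, n = 3), and its scaled signal was 5463, 5889 and 5966 (mean 5773 ± 271). The pituitary gland came second, with 23.6, 27.2 and 26.1 unscaled and 15.5, 19.8 and 33.0 scaled. All 3 pancreas arrays lay above all 3 pituitary arrays on either scale, and outside these organs the highest of 174 arrays was the duodenum of rat 5 with 2.90 units unscaled. By the rule that over 50% of its spots be well above background, miR-216a was detected on 5 of 180 arrays, 3 of pancreas and 2 of pituitary gland.

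miR-217 was likewise brightest in pancreas, with the pituitary gland next. In pancreas it read 199, 143 and 99.2 units unscaled (mean 147 ± 49.9, SD, n = 3) and 3487, 3358 and 3089 scaled (mean 3311 ± 203). In the pituitary gland it read 11.0, 19.9 and 11.6 unscaled and 7.23, 14.5 and 14.6 scaled, so the organs did not overlap on either scale. The highest value elsewhere was again the duodenum of rat 5, at 1.51 units unscaled. It was detected on 5 arrays, 3 of pancreas and 2 of pituitary gland.

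miR-216b-5p was dimmer on its own probes, and here the scale decided the picture. Its unscaled signal was 35.8, 24.0 and 20.5 units in pancreas and 16.3, 24.9 and 17.1 in the pituitary gland, so the organs overlapped. After scaling the pancreas read 628, 561 and 639 and the pituitary gland 10.69, 18.1 and 21.7, with no overlap. The rule on spots called it detected on 2 pancreas arrays and 1 pituitary array. On the pancreas array of rat 6 exactly 50% of its spots were well above background, just short of the rule. The scanner software's own call marked it detected on all 6 of these arrays and on no other.

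The earlier entry rno-miR-217_v15.0 read 29.8, 26.0 and 15.9 units unscaled in pancreas (524, 608 and 496 scaled) and at most 0.888 units unscaled in the pituitary gland. It met the detection rule on 1 array, the pancreas of rat 4. The arms rno-miR-216a*, rno-miR-216b-3p and rno-miR-217* were detected on 0 of 180 arrays, pancreas included. On the 15 arrays of rats that were not perfused, none of the 7 IDs was detected, and the highest unscaled signals of miR-216a, miR-216b-5p and miR-217 there were -0.0185, -0.721 and -0.202 units after the scanner's background subtraction.

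**Figure D2:**
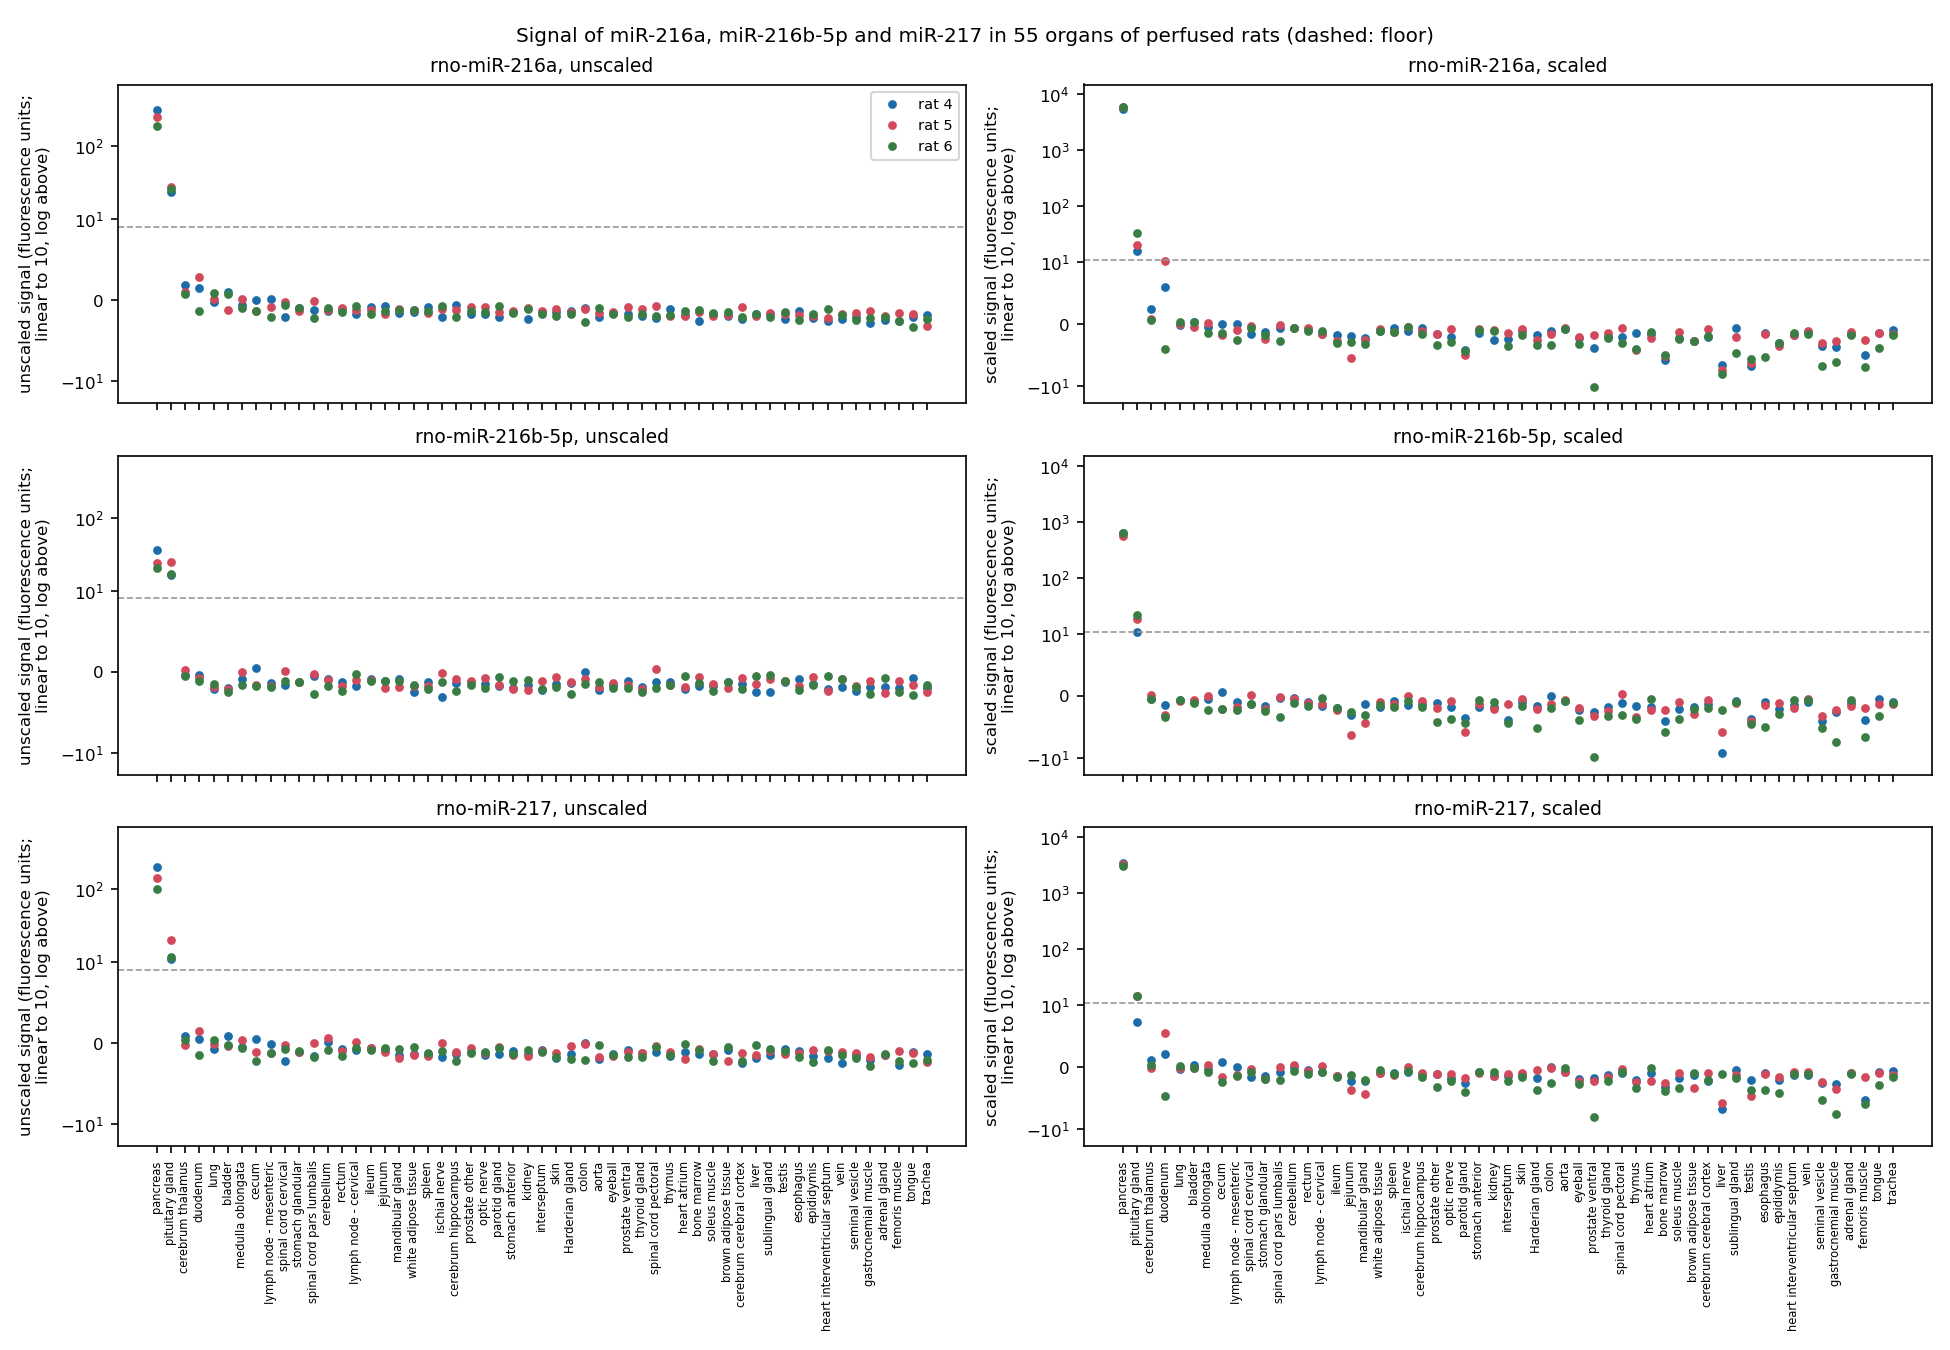
Signal of miR-216a, miR-216b-5p and miR-217 in the 55 organs of rats 4, 5 and 6, unscaled on the left and scaled on the right, on axes that are linear to 10 units and logarithmic above. Points over the dashed floor (9.07 units unscaled, 10.8 scaled) belong to pancreas and pituitary gland in all 6 panels.

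Behind the pituitary gland the order of thalamus and duodenum for miR-216a had no support from the spread. Unscaled, the cerebrum thalamus came next for miR-216a with 1.20 ± 0.620 units and then the duodenum with 1.04 ± 2.16 (SD, n = 3), and the rats of these organs overlapped. Scaled, these organs changed places, with 4.20 ± 7.50 in duodenum and 1.34 ± 1.03 in thalamus. The scanner software called miR-216a detected on 1 array of each of these organs, the duodenum of rat 5 and the thalamus of rat 4, although 15.0% and 5.00% of its spots there were well above background.

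The distance from pancreas to pituitary gland depended on the scale for each of the 3 members. The ratio, taken within each rat and averaged on the log2 scale, was 267-fold scaled and 9.63-fold unscaled for miR-216a. It was 287-fold scaled and 10.4-fold unscaled for miR-217. For miR-216b-5p it was 37.7-fold scaled and 1.36-fold unscaled, and in rat 5 the unscaled ratio was 0.963. The averages do not depend on which pituitary array belongs to which rat, while the ratio of rat 5 does. Other scalings lay between these values or near the unscaled ones. For miR-216a the ratio was 9.06-fold on the hybridization controls, 11.0-fold on the labelling controls, 18.9-fold on the summed signal, 89.5-fold on the percentile over all miRNAs, 127-fold in the table of the authors and 244-fold after quantile normalization. For miR-217 these were 9.75-fold, 11.8-fold, 20.3-fold, 96.3-fold, 166-fold and 283-fold. For miR-216b-5p they were 1.28-fold, 1.55-fold, 2.67-fold, 12.6-fold, 19.2-fold and 25.2-fold, and the organs overlapped unscaled and on both kinds of control but not on the other scalings. By the rule on spots, miR-216b-5p was not detected in the pituitary gland of rats 4 and 6, miR-216a in that of rat 4 and miR-217 in that of rat 6, so these ratios rest in part on signals near the detection limit. The scaled signals of miR-216b-5p and miR-217 in the pituitary gland of rat 4 lay under the floor of 10.8 and were used here as measured. Since the pituitary gland was singled out by its values, these ratios are a description without a test. No pituitary array shared a slide with a pancreas array.

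**Figure D3:**
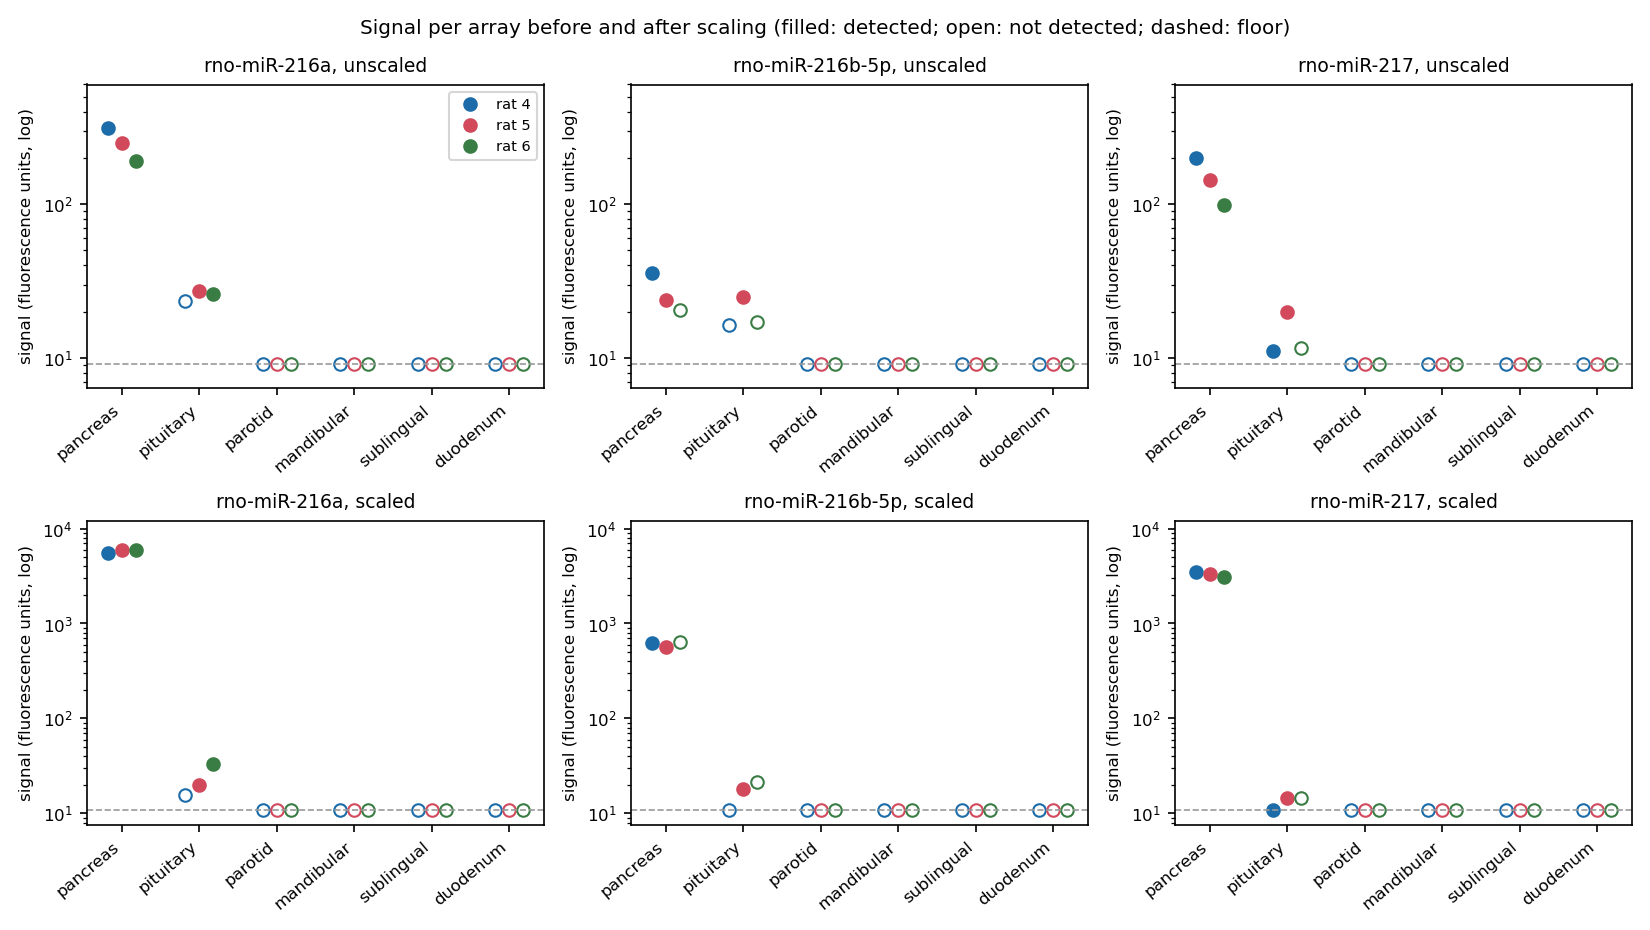
Signal per array of the 3 members in pancreas, pituitary gland, the salivary glands and duodenum, on logarithmic axes, with unscaled values in the upper row and scaled values in the lower row. For miR-216b-5p the unscaled pancreas points (20.5 to 35.8) overlap the pituitary points (16.3 to 24.9), and scaling moves pancreas to 561 to 639. Values under the floor are drawn at the floor.

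The salivary glands gave the comparison with other glands that secrete enzymes. None of the 7 IDs was detected on any of the 9 salivary arrays. The unscaled signal of miR-216a in the parotid, mandibular and sublingual glands ran from -2.10 to -0.679 units, that of miR-216b-5p from -2.51 to -0.441 and that of miR-217 from -1.89 to -0.497, so all gland arrays lay below every pancreas array. On the scaled values limma (12 arrays, 192 miRNAs tested) gave pancreas minus the mean of the 3 glands as 9.06 ± 0.10 log2 units (SE) for miR-216a and 8.25 ± 0.10 for miR-217. Both entered this fit only because all 3 pancreas arrays detected them, the organ in which they are high, so their calls there support nothing by themselves. The fit over all 717 miRNAs, which has no such filter, gave the same differences with limma adjusted p = 2.7e-16 for miR-216a and 2.7e-15 for miR-217. Many values at the floor narrow the errors of that fit (SE 0.02 and 0.03), so these p-values understate the spread. In the filtered fit 42.7% of all miRNAs tested were called higher and 34.9% lower.

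Without scaling the differences shrank and kept their direction. The limma difference was 4.77 ± 0.23 log2 units for miR-216a and 3.96 ± 0.25 for miR-217, with the same limit of the filter. Over all 717 miRNAs the limma adjusted p was 5.1e-08 and 1.1e-06, again with narrowed errors (SE 0.12 and 0.17). Over the 192 miRNAs the median difference was -0.04 with scaling and -1.63 without it, so relative to that median miR-216a stood 9.10 higher with scaling and 6.40 higher without, and miR-217 8.30 and 5.60. Unscaled, 17.2% of the miRNAs tested were called higher in pancreas and 59.9% lower (58 miRNAs instead of 115 without rat 5), and the share of calls that were higher went from 55.0% with scaling to 22.3% without. Of the 82 miRNAs called higher on scaled values, 33 were called higher and 29 were called lower on unscaled values. miR-216a and miR-217 were among those higher on both.

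Since every gland array lay under the floor, the log2 differences from the parotid, mandibular and sublingual glands were the same, 9.06 for miR-216a and 8.25 for miR-217, and they measure the pancreas level over the floor. As a bound, pancreas was set against the dimmest miRNA detected on each gland array. With log2 values averaged over the pancreas arrays and over these limits (a ratio of geometric means), miR-216a was at least 178-fold higher in pancreas than in the parotid gland on scaled values and at least 26.9-fold higher on unscaled values. For the 3 glands together this bound was at least 344-fold scaled and 28.4-fold unscaled for miR-216a, and at least 197-fold and 16.3-fold for miR-217. The limits differed between arrays, so the lowest pancreas array was also set against the highest limit of any gland array. By that stricter measure, added after seeing the data, miR-216a was at least 109-fold higher scaled and 18.8-fold higher unscaled, and miR-217 at least 61.7-fold and 9.73-fold. The parotid array of rat 6 also had the lowest percentile of the gland arrays, at 336 units. Its limit sets the stricter scaled bounds, which without it were at least 165-fold for miR-216a, 93.2-fold for miR-217 and 16.9-fold for miR-216b-5p. The log2 differences cannot move when a gland array is left out, because all of them lie at the floor.

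miR-216b-5p and rno-miR-217_v15.0 did not pass the detection filter of these fits, so limma values for them come from the fit over all 717 miRNAs, in which many values at the floor narrow the error. In that fit 28.9% of all miRNAs were called higher in pancreas on scaled values and 5.72% on unscaled values. miR-216b-5p was 5.81 ± 0.03 log2 units higher in pancreas than in the glands on scaled values (limma adjusted p = 9.7e-14) and 1.52 ± 0.14 on unscaled values (limma adjusted p = 1.6e-04). The unscaled call was lost without rat 5 (difference 1.58, limma adjusted p = 0.057). From the geometric means, miR-216b-5p was at least 36.3-fold higher scaled and 2.99-fold higher unscaled than in the 3 glands, and by the stricter measure at least 11.2-fold and 2.01-fold. For rno-miR-217_v15.0 the differences were 5.64 ± 0.05 scaled and 1.35 ± 0.16 unscaled (limma adjusted p = 5.1e-04), and without rat 5 the unscaled difference was 1.27 (limma adjusted p = 0.12). In an exact two-sided permutation test over the 220 choices of 3 of the 12 arrays, p was 0.0045 for miR-216a, miR-216b-5p, miR-217 and rno-miR-217_v15.0 on both scales, the smallest value that these choices can give. All 4 organs came from the same 3 rats, and with arrays exchanged within each rat only (64 choices, one-sided, added after seeing the data) the exact permutation p was 0.016 for each of them, again the smallest possible. Both tests exchange single arrays, although the 12 arrays form 4 organs with 3 arrays each.

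Within each rat, which for these organs is also within 1 scan day, the differences were alike on scaled values and less so on unscaled ones. Since all gland values were set to the floor, these differences are pancreas levels over a constant and take out no effect of rat or scan day. For miR-216a they were 8.98, 9.09 and 9.11 log2 units scaled and 5.10, 4.79 and 4.40 unscaled in rats 4, 5 and 6. For miR-217 they were 8.33, 8.28 and 8.16 scaled and 4.45, 3.98 and 3.45 unscaled. No slide held both a pancreas array and a gland array, so slide and this contrast cannot be told apart within a slide. Scaling also narrowed the spread between pancreas samples, whose coefficient of variation fell from 23.8% to 4.70% for miR-216a, from 33.9% to 6.14% for miR-217 and from 30.0% to 6.92% for miR-216b-5p.

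Set against the average of all 54 remaining organs, the differences were close to those against the glands. In limma over 165 arrays and 345 miRNAs, miR-216a was 9.04 ± 0.05 log2 units higher in pancreas on scaled values and 4.74 ± 0.03 on unscaled values. miR-217 was 8.25 ± 0.02 and 3.95 ± 0.06 higher. Here too both miRNAs passed the filter through pancreas alone. Over all 717 miRNAs the limma adjusted p was 5.1e-142 scaled and 6.5e-131 unscaled for miR-216a, and 6.2e-174 and 5.9e-93 for miR-217. The errors are shared with organs whose arrays all lie at the floor, so they understate the spread in pancreas. In the same comparison 41.2% of the miRNAs tested were called higher in pancreas and 46.7% lower on scaled values, and 11.0% and 72.2% on unscaled values. Pancreas held the highest organ mean for 65 of the 345 miRNAs scaled and for 21 unscaled, and miR-216a and miR-217 were in both groups. For miR-216b-5p, which did not pass the filter, the fit over all miRNAs gave 5.80 ± 0.04 scaled and 1.4997 ± 0.04 unscaled (limma adjusted p = 4.2e-124 and 7.2e-61), where 36.5% and 6.56% of all 717 were called higher. An exact one-sided permutation test over the 735130 choices of 3 of 165 arrays gave p = 1.4e-06, the smallest possible, for miR-216a and miR-217 on both scales. For miR-216b-5p the same exact test gave p = 1.4e-06 scaled and 4.1e-06 unscaled. Exchanging arrays within each rat only (166375 choices) gave an exact one-sided permutation p of 6.0e-06 for miR-216a and miR-217 on both scales, the smallest possible, and of 6.0e-06 scaled and 1.2e-05 unscaled for miR-216b-5p. Both exchanges treat single arrays as units, although the arrays form 55 organs with 3 arrays each. Their p-values therefore do not measure the spread between organs. None of the 159 arrays of the 53 organs other than pancreas and pituitary gland detected miR-216a or miR-217. The lowest pancreas array lay at least 109-fold scaled and 13.3-fold unscaled above the highest detection limit among these arrays for miR-216a, and at least 61.7-fold and 6.90-fold for miR-217.

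The share of the summed signal does not change with a scaling factor, but it depends on what else is in the sum. The 7 IDs together held 0.642%, 0.621% and 0.385% of the summed miRNA signal in the pancreas of rats 4, 5 and 6 (mean 0.549% ± 0.143, SD, n = 3). In the pituitary gland the share was 0.0266%, 0.0394% and 0.0498%, and on the 9 salivary arrays it was at most 0.00375%. Pancreas and pituitary gland did not overlap. The 4 brightest pancreas IDs named above take most of the pancreas sum. With them left out (added after seeing the data), the 7 IDs held 6.10%, 4.57% and 4.73% of the rest in pancreas and 0.0267%, 0.0395% and 0.0504% in the pituitary gland. On the pancreas arrays miR-216a ranked 12th, 14th and 12th in unscaled signal among the 717 miRNAs and miR-217 18th, 20th and 20th, ranks that also reflect how bright each probe is.

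Each ID was read by 2 to 4 probes of unequal brightness. In the pancreas of rat 4 the 4 probes of miR-216a read 581, 455, 194 and 15.2 units unscaled, and all 4 lay above every gland array in all 3 rats. For miR-216b-5p the probes read 84.1, 41.2, 20.6 and -2.72 units, so the dimmest gave no signal and lowers the average and the detection call of this miRNA. The brightest probe of miR-216b-5p read 84.1, 57.4 and 55.9 units in pancreas and 48.6, 59.3 and 48.6 in the pituitary gland, an overlap like that of the average. The 2 probes of miR-217 read 240 and 157 units in the pancreas of rat 4, and both lay above the glands in all 3 rats. Of the 4 probes of rno-miR-217_v15.0, 3 did so. Because miR-216a and miR-216b-5p share 18 of 22 bases, part of the signal on the probes of either may come from the other, and this was not tested.

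**Figure D4:**
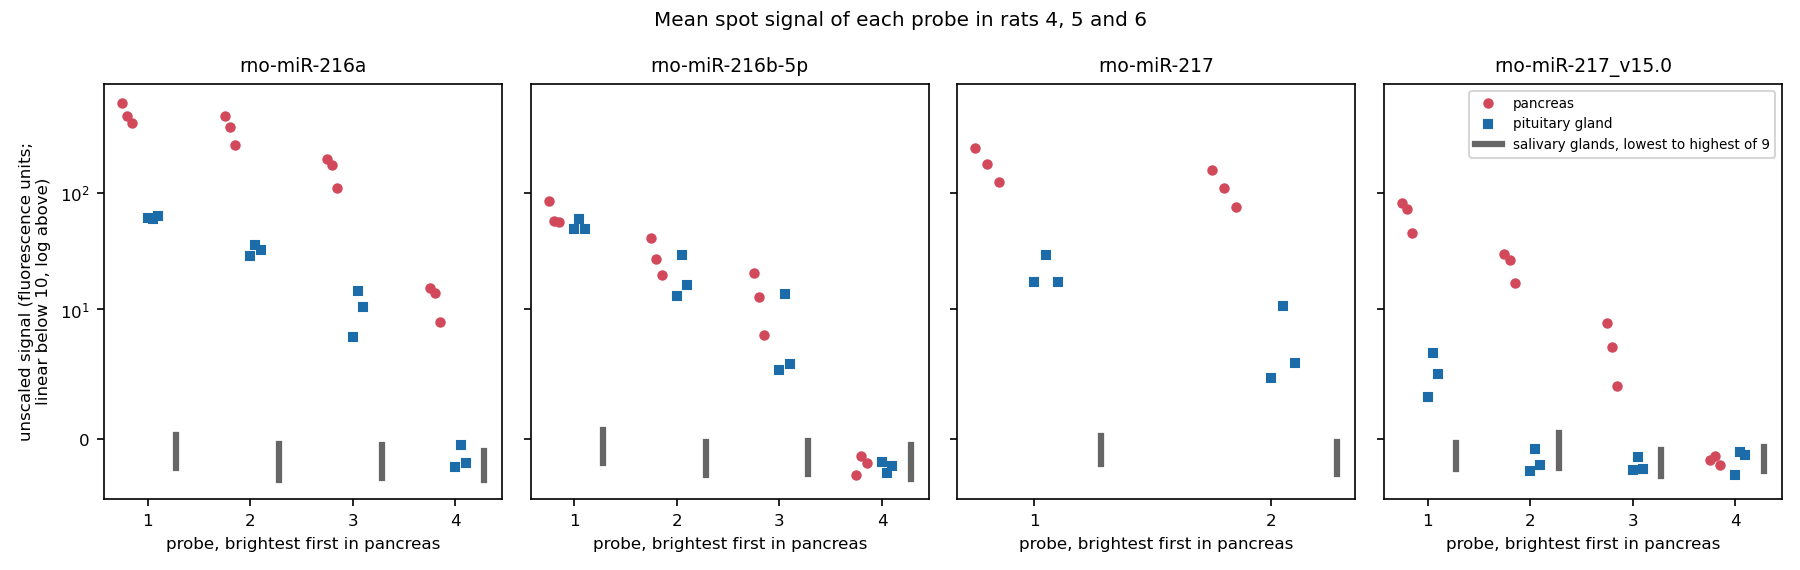
Mean unscaled signal of each probe in pancreas (circles) and pituitary gland (squares) of rats 4, 5 and 6, with the range over 9 salivary arrays as a bar, on an axis that is linear to 10 units and logarithmic above. Among the 4 IDs plotted, miR-216b-5p is the only one in which the pituitary points reach the pancreas points on the brightest probe (48.6 to 59.3 against 55.9 to 84.1).

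By the correlation of organ means over 55 organs, the miRNAs outside these hairpins with the pattern most like miR-216a were rno-miR-370_v15.0, rno-miR-666 and rno-miR-493, each with Pearson's r = 0.994 on scaled log2 values and r of 0.954, 0.954 and 0.946 unscaled. The same 3 were most like miR-217, with r = 0.999 each on scaled values and r of 0.989, 0.989 and 0.982 unscaled. For comparison miR-216a and miR-217 had r = 0.997 scaled and 0.988 unscaled. All these coefficients rest on 1 or 2 organs above a common floor, and the scaled ones share the pancreas scaling factor. Unscaled, rno-miR-370_v15.0 read 24.8, 17.9 and 30.7 units in pancreas, rno-miR-666 read 119, 165 and 60.4, and rno-miR-493 read 31.2, 19.1 and 26.1. rno-miR-370_v15.0 and rno-miR-666 were detected on the 3 pancreas arrays and on no other perfused array, and rno-miR-493 on 1 more.

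Other miRNAs associated with the pancreas were set beside miR-216a and miR-217. Of 9 IDs listed, 4 were tested against the glands by limma. Scaled, 2 were higher and 1 lower, with a median difference of 1.45 log2 units beside -0.04 for all miRNAs tested, of which 42.7% were higher and 34.9% lower. Unscaled, 0 were higher and 2 lower, with a median of -2.03 beside -1.63 for all miRNAs tested, of which 17.2% were higher and 59.9% lower. The counts of this list thus lay near those of all miRNAs. miR-375, an islet miRNA that also restrains insulin secretion, read 317, 273 and 182 units unscaled in pancreas and 202 to 1941 in the glands, which overlapped. Its difference was 2.67 ± 0.13 scaled (limma adjusted p = 6.2e-09) and -0.93 ± 0.49 unscaled (limma adjusted p = 0.098). miR-7a, also enriched in islets, was 2.91 ± 0.21 higher scaled (limma adjusted p = 1.6e-07) and -0.60 ± 0.54 unscaled (limma adjusted p = 0.30). It was detected on 2 pancreas arrays and 5 gland arrays and read 6.24 units unscaled in the pancreas of rat 6, under the floor. Its differences thus rest in part on undetected signals and are not exact. miR-148b-3p was detected on all 9 gland arrays and on 0 pancreas arrays, where it read 1.49 to 4.32 units unscaled, under the floor. Its differences were -1.25 ± 0.19 scaled and -3.12 ± 0.54 unscaled (limma adjusted p = 7.5e-05 and 3.4e-04). They are not exact, because they rest on undetected pancreas signals. The islet miRNAs miR-7b and miR-184 were not detected on any pancreas or gland array.

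Of 7 epithelial miRNAs listed, miR-141, miR-200a, miR-200b, miR-200c, miR-429, miR-203 and miR-205, 6 were tested and these 6 were lower in pancreas than in the glands on both scales, with medians of -1.70 scaled and -4.77 unscaled (limma), where 34.9% of all miRNAs tested were lower scaled and 59.9% unscaled. The list does not hold other arms or earlier entries, of which rno-miR-200b*, named after its values were seen, was 4.11 ± 0.24 log2 units higher in pancreas scaled (limma adjusted p = 2.4e-08) and 0.49 ± 0.48 unscaled (limma adjusted p = 0.34). The earlier entries rno-miR-200c_v15.0 and rno-miR-205_v15.0 were lower in pancreas, with differences of -0.52 and -3.32 scaled and -4.12 and -3.91 unscaled. miR-205, a miRNA of stratified epithelium, was not detected in pancreas (at most 0.135 units unscaled and 2.38 scaled) and read 20.8 to 908 units unscaled and 131 to 314 scaled in the glands. Markers of other cells in the dissected organs were measured beside the members, and their part in the results was not tested. Of 4 leukocyte miRNAs 1, miR-223, was detected on all 3 pancreas arrays, and the summed unscaled signal of the list, with negative signals counted as 0, was 33.1 to 41.8 units in pancreas and 60.1 to 693 in the glands. Scaled, the order of the sums turned, with 645 to 1030 in pancreas and 240 to 501 in the glands. Within the list this turn was seen for miR-223 alone, at 488 to 878 scaled in pancreas and 94.2 to 234 in the glands. miR-223 was 2.28 ± 0.23 log2 units higher in pancreas scaled (limma adjusted p = 3.3e-06) and -1.31 ± 0.42 unscaled (limma adjusted p = 0.015). The rest of the list was not detected in pancreas. Scaled, miR-142-3p read 89.0 to 122 there and 92.5 to 271 in the glands (difference -0.33, limma adjusted p = 0.31). miR-150 read 26.1 to 34.8 and 26.2 to 71.8, and miR-142-5p was negative on every pancreas array. The erythroid miRNAs miR-451 and miR-144, the liver miRNA miR-122 and the 3 gut mucosa miRNAs were not detected in pancreas, with sums of at most 2.16, 0.359 and 1.59 units unscaled and 50.6, 11.2 and 28.1 scaled. Summed unscaled signals of the 2 smooth muscle miRNAs were 11.6 to 29.3 units in pancreas and 122 to 9394 in the glands, those of the 2 endothelial IDs 11.7 to 21.6 and 39.6 to 1006, and those of the 4 striated muscle miRNAs 6.99 to 10.0 and 7.99 to 6093. Scaled, these 3 lists summed to 361 to 514 in pancreas against 769 to 3538 in the glands, 363 to 378 against 238 to 582, and 176 to 218 against 24.6 to 12157. None of the 4 striated muscle miRNAs was detected on a pancreas array, so their sums there hold undetected signal only. The smooth muscle members differed on scaled values, where miR-143 was lower in pancreas (-2.55, limma adjusted p = 2.5e-07) and miR-145 higher (1.74, limma adjusted p = 5.4e-06), and both were lower unscaled. miR-145 was detected on 0 pancreas arrays and miR-143 on 1, so these differences rest on signals near or under the detection limit and are not exact. The 4 islet miRNAs summed to 191 to 338 units unscaled in pancreas and 211 to 2026 in the glands, which overlapped, and to 5934 to 6859 scaled against 701 to 1330, which did not.

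**Figure D5:**
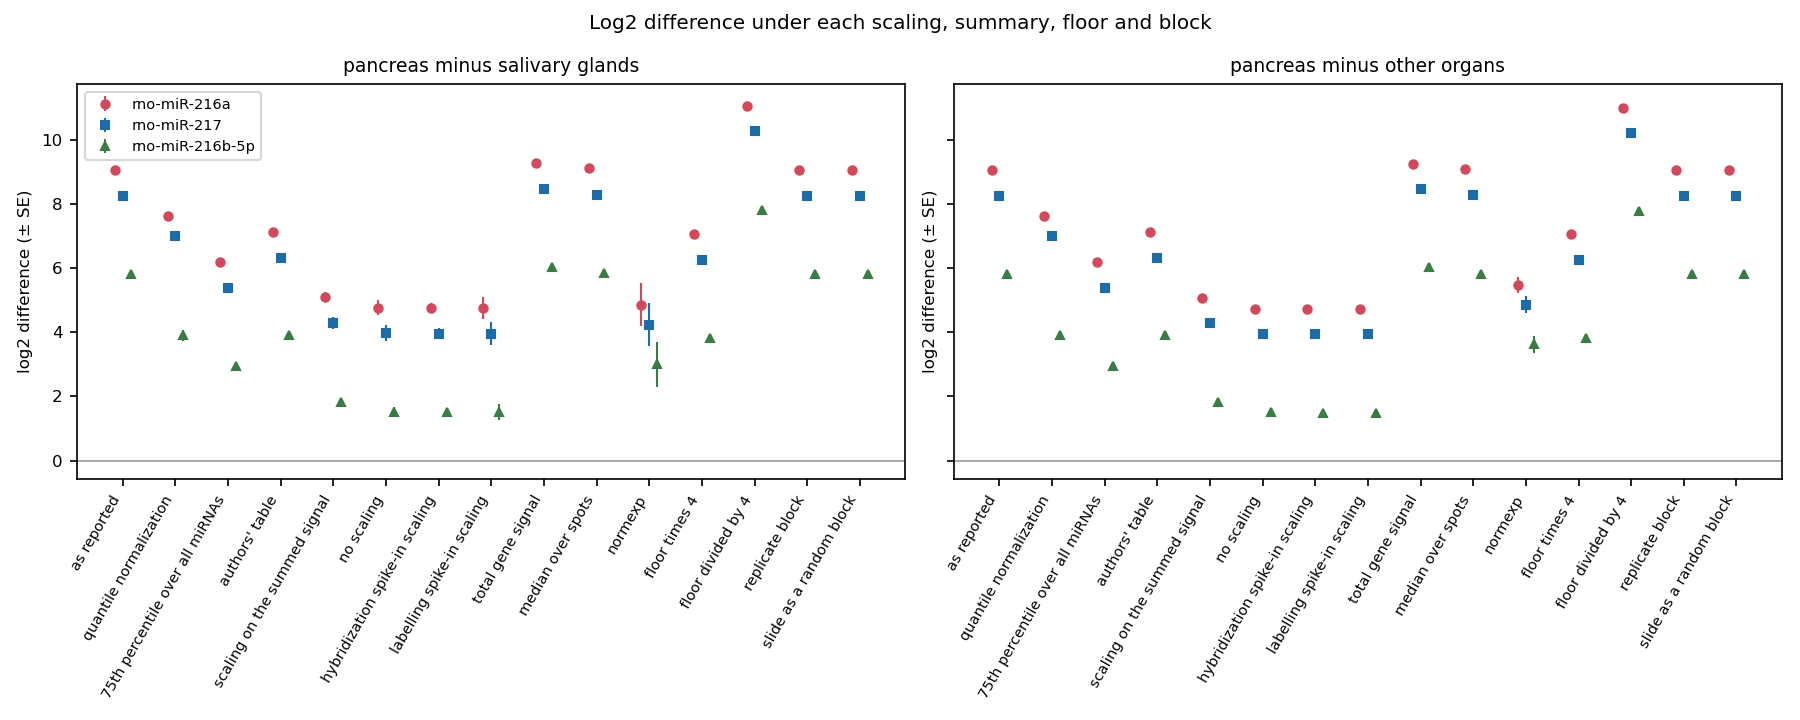
Log2 difference of pancreas from the salivary glands (left) and from the other organs (right) for miR-216a, miR-217 and miR-216b-5p (the last without the detection filter) under each way of scaling, summarising and flooring, with the standard error of limma. miR-216a is 9.06 and 9.04 as reported and 4.77 and 4.74 without scaling, and all values lie above 0.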

How the data were processed

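The authors labelled total RNA with Cy3, hybridized it to a custom rat miRNA array with miRBase 15.0 and 16.0 probes and read spots with Agilent Feature Extraction 10.7.3. They deposited background-subtracted signal intensity per spot, used here, and a table of intensity per miRNA scaled by 1 factor per array (0.411 to 10.5 times the scanner's total signal), used as an alternative. Arrays numbered 180, with 14340 miRNA spots each, on 23 slides and 3 scan days. Spots called outliers by the scanner (1.63% to 6.42% per array) were left out, 0 were saturated, and 86 to 244 miRNAs were detected per array. The number of arrays limits the precision.

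Spots were averaged per probe and probes per miRNA. Detection required that the scanner mark more than 50% of the spots of a miRNA as well above background. Scaling set the 75th percentile of the 37 miRNAs that every array detected to its mean of 2118. Values under a floor of 10.8 (9.07 unscaled), the median of the lowest signal detected per array, were set to it before log2 was taken. On the pancreas arrays the lowest detected signal was 115 to 273 scaled, so undetected pancreas signals can stand above the floor in scaled fits. limma 3.58.1 (R 4.3.3) with 1 term per organ tested miRNAs that all 3 arrays of 1 or more organs detected, two-sided, adjusted by Benjamini-Hochberg at 0.05. It was tested on simulated data with normal noise and no floor, a setting unlike the gland values of the members, which all lie at the floor. Members, lists and tests were chosen with earlier results of these data known. Named were the members, the other IDs of their hairpins, 3 most similar miRNAs each, and fixed lists. Figures used matplotlib.

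Arrays of 1 number come from 1 rat, by the sample titles. Deviations from organ means correlated at 0.304, 0.154 and 0.208 within rats 4, 5 and 6 over the 12 arrays of pancreas and glands, and at -0.108 between rats.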

Additional observations from a re-analysis of the deposited data

How the results depend on the processing

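In each alternative that gave a value, the differences of miR-216a and miR-217 between pancreas and salivary glands or other organs kept their direction and their side of the threshold. Over scalings, summaries, floors, filters and blocks, miR-216a against the glands ran from 4.76 (scaling on the labelling controls, chosen after seeing the data) to 11.1 (floor divided by 4) and miR-217 from 3.96 to 10.3, with limma adjusted p of at most 2.9e-04 and 7.9e-04. Against the other organs they ran from 4.73 to 11.0 and from 3.94 to 10.2. Unscaled with a floor times 4 they were 2.77 and 1.96 against the glands. With normexp the parotid contrast alone was smaller, 3.72 and 3.11. Leaving out 1 rat or 1 array gave 9.03 to 9.10 and 8.22 to 8.30 against the glands. With rat as replicate block they were 9.06 and 8.25. The block could not change these differences, because each organ has 1 array of each rat, and it changed no call of a member.

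The counts over all miRNAs moved. Higher and lower calls against the glands were 82 and 67 as reported, 33 and 115 without scaling, 44 and 132 with the percentile over all miRNAs, 54 and 124 with quantile normalization, 34 and 127 with hybridization controls, 30 and 116 with labelling controls, 33 and 150 with the summed signal (also chosen after seeing the data), 155 and 8 with normexp and 48 and 129 in the authors' table. The total gene signal gave 102 lower, no filter 207 higher and the fit on all organs 137 higher. Against other organs 142 and 161 became 38 and 249 without scaling, 59 with the percentile over all miRNAs, 78 with quantile normalization, 38 and 257 with hybridization controls, 37 with labelling controls, 41 and 262 with the summed signal, 327 and 10 with normexp, 70 in the authors' table, 262 without a filter, and 59 and 67 among miRNAs detected on at least 50% of arrays. Unscaled, a floor times 4 gave 18 higher and 51 lower against the glands and 21 higher against other organs, and the filter at 50% of arrays gave 13 higher against the glands and 7 higher and 130 lower against other organs. Leaving out 1 rat or array gave 58 (without rat 5) to 150 lower unscaled against the glands, 115 as reported. Apart from the filters and the rat left out, which change the miRNAs or arrays used, the cause was not tested.

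With the filter at 50% of arrays no member was tested, and with a floor times 4 on unscaled signals miR-216b-5p and rno-miR-217_v15.0 lay at the floor on every array and had no value. normexp used the median spot and background signals. All members but those in pancreas and pituitary gland lie under the detection limit of the arrays, so fitted differences measure the pancreas level over a common floor and are not lower bounds.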
